A study of Mus musculus with 6 samples.

Results

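Voltage-gated calcium channels open when a neuron depolarizes and let calcium into the cell. The pore, the voltage sensors and the selectivity filter all lie in a single large protein, the alpha1 pore subunit, and each pore subunit has a gene of its own. The mouse genes examined here were chosen by symbol from the deposited gene table: Cacna1a, Cacna1b, Cacna1c, Cacna1d, Cacna1e, Cacna1f, Cacna1g, Cacna1h, Cacna1i and Cacna1s, 10 of the 24060 genes listed. The RNA came from retinal ganglion cells (RGCs), the neurons that send the axons of the optic nerve, of C57BL/6 mice with no treatment in either group. RGCs were collected at embryonic day 18 (E18; samples numbered 1, 3 and 4) and at postnatal day 5 (P5; samples numbered 6, 8 and 9), so each age has 3 samples. Neither the number of animals in a sample nor their sex is given, and the labels do not say whether samples came from separate litters. If they did not, p-values measure the spread between these samples only. At both ages retinas were dissociated with papain, macrophages were removed with an antibody, and cells carrying CD90 (Thy1) were held on coated dishes. The comparison asks which pore subunits RGCs express while their axons grow rapidly and which they express after that capacity has declined.

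The family is divided by the voltage at which the channels open. High-voltage-activated channels need a strong depolarization. They comprise the L-type pores (Cacna1c, Cacna1d, Cacna1f and Cacna1s), which give long-lasting currents and in neurons signal to the nucleus, and the P/Q-type (Cacna1a), N-type (Cacna1b) and R-type (Cacna1e) pores, which sit at nerve terminals, where the first and second of these trigger transmitter release. Low-voltage-activated or T-type channels (Cacna1g, Cacna1h and Cacna1i) open near the resting potential, close quickly and support rebound firing and bursts. High-voltage-activated pores assemble with alpha2delta and beta subunits, whereas T-type pores can work without them. Immature RGCs fire in waves that sweep across the retina before vision begins, and calcium enters them during these waves.

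The division into T-type and high-voltage-activated pores, on which the results below turn, is visible in the coding sequence of the selectivity filter. In the third pore loop, high-voltage-activated channels carry a glutamate and T-type channels an aspartate. The sequences are 27 coding bases of the GENCODE M21 transcript matched to the listed RefSeq accession, and the capitals mark the codon of that residue. They show the 3 T-type genes first, then the most abundant high-voltage-activated genes.
Cacna1h: ctgtcatccaagGATggctgggtaaac
Cacna1g: ctggcctccaagGATggctgggttgac
Cacna1i: ttggcctccaagGATggctgggtgaac
Cacna1b: gtgtccacgggaGAGgggtggcccatg
Cacna1a: gtgtccacaggaGAGggctggccacag
Cacna1d: gtctcaacttttGAGggctggcccgcg
In mm10 these stretches lie at chr17:25383496-25383522 (minus strand), chr11:94426459-94426485 (minus strand) and chr15:80376795-80376821 (plus strand) for Cacna1h, Cacna1g and Cacna1i, each inside exon 24 of its transcript. Those of Cacna1b, Cacna1a and Cacna1d cross an intron, at chr2:24650628-24651106 (minus strand, exons 27 and 28), chr8:84581326-84583559 (plus strand, exons 27 and 28) and chr14:30099243-30100722 (minus strand, exons 26 and 27). All 7 high-voltage-activated genes had the stretch split over a junction, and none of the 3 T-type genes did. Within the T-type genes 23 to 24 of the 27 bases were identical in a pair, against 16 to 23 within the high-voltage-activated genes and 11 to 15 between the groups.

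Library totals over genes ran from 81213639 to 114512853 reads. By edgeR's quasi-likelihood test on TMM-normalized counts, with Benjamini-Hochberg adjustment over all genes and a threshold of 0.05, 43.4% of the 16449 genes tested differed between the ages, 20.8% higher and 22.5% lower at E18. No sequencing batch is given in the labels. The 15 RGC genes summed to 9550 to 11270 CPM (counts per 1000000 reads of the TMM-normalized library) at E18 and 9871 to 10970 CPM at P5. Tubb3 was the highest of them at E18 and Nefl at P5. Of these 15 genes, 4 were higher and 6 lower at E18. Thy1, by which the cells were captured, was among the lower, at a mean of 247 CPM at E18 and 553 CPM at P5. Similar sums therefore do not show that RGC purity was equal at the ages. Genes of dividing cells and of retinal progenitors were uneven at E18. The 9 dividing-cell genes summed to 309, 121 and 73.1 CPM in E18 replicates 1, 3 and 4, against 53.5 to 69.4 CPM at P5, and 6 of them were higher at E18. The 11 progenitor genes summed to 287, 130 and 38.3 CPM, against 20.1 to 35.2 CPM at P5, and 6 were higher at E18. E18 replicate 1 is listed in the table under the numbers 1, 2 and 5 together, and whether it pools preparations is not stated.

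All 10 pore subunits passed the expression filter, and 6 of them differed between the ages, 2 higher and 4 lower at E18. Among all genes tested 43.4% differed, 20.8% higher and 22.5% lower, and with 10 members a count of 6 is not far from that background. The values of the ages did not overlap in the same number of members, 6 of 10, against 56.1% of all genes tested. The median log2 fold change (E18 over P5) of the members was -0.01, and that of all genes tested was 0.00473. Cacna1s reached the filter level of 0.108 CPM in no E18 sample and in all 3 P5 samples, so a gene like it could pass only by differing, and without it 5 of 9 members differed. The called members differed among themselves in the size and direction of the change. Among members with at least 1092 reads in every sample, the 3 T-type genes had the largest changes, and only that of Cacna1g exceeded 2-fold.

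**Figure D1:**
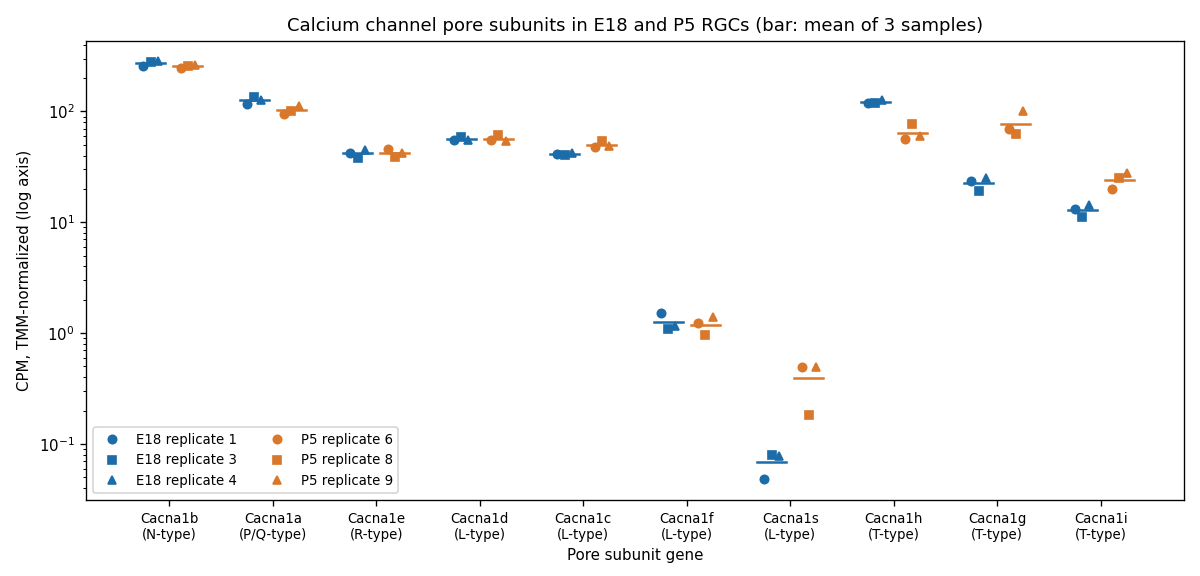
TMM-normalized CPM (log axis) of each pore subunit gene in each of the 3 E18 samples (blue) and the 3 P5 samples (orange), with a bar at the mean of each age. Cacna1h is higher in every E18 sample than in every P5 sample, Cacna1g and Cacna1i are lower, and the points of Cacna1b, Cacna1d, Cacna1e and Cacna1f overlap.

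Among the T-type genes, Cacna1h was the one with a higher level at E18. Cacna1h (ENSMUSG00000024112.16, chromosome 17 of mm10, 25374285 to 25433783, minus strand) encodes a T-type pore known from sensory neurons and from developing tissues. It had 119, 118 and 127 CPM in E18 replicates 1, 3 and 4, and 56.2, 77.1 and 59.7 CPM in P5 replicates 6, 8 and 9. The ages did not overlap, and the coefficient of variation was 4.09% among the E18 samples and 17.5% among the P5 samples. The means were 121 ± 4.95 and 64.3 ± 11.2 CPM (SD, n = 3 each), and the log2 fold change was 0.91 (standard error, SE, 0.126, edgeR-adjusted p = 0.00100), or 1.88-fold higher at E18 with a 95% interval of 1.54 to 2.30. Of all genes tested, 8.69% had a larger log2 fold change of E18 over P5. The 10 genes of endothelial cells, pericytes and smooth muscle, cells that can also express Cacna1h, summed to 73.9, 65.9 and 17.5 CPM in E18 replicates 1, 3 and 4 and to 15.8 to 19.2 CPM at P5. Most of the E18 sum came from Kdr, which was higher at E18, while Pecam1, Tek and Rgs5 were lower, and the other 9 genes summed to 3.05 to 4.39 CPM at E18 and 7.86 to 11.0 CPM at P5. The part of these cells, of dividing cells and of progenitors in the level of Cacna1h was not tested. Cacna1h shares 158 exon bases with Tpsg1 on the other strand, a gene listed at a mean of 0.261 CPM at E18 and 0.343 CPM at P5.

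Cacna1g moved the opposite way and by more. Cacna1g (ENSMUSG00000020866.17, chromosome 11, 94408391 to 94474198, minus strand) encodes the T-type pore best known for burst firing in thalamic neurons. It had 23.6, 19.3 and 25.3 CPM in E18 replicates 1, 3 and 4 and 69.6, 62.9 and 100.4 CPM in P5 replicates 6, 8 and 9. Every P5 sample was well above every E18 sample, and P5 replicate 9 was the highest. The means were 22.7 ± 3.08 and 77.7 ± 20.03 CPM (SD, n = 3 each), and the log2 fold change was -1.77 (SE 0.186, edgeR-adjusted p = 0.000355), or 3.42-fold higher at P5 with a 95% interval of 2.55 to 4.58. Of all genes tested, 3.89% had a more negative log2 fold change of E18 over P5. Without P5 replicate 9 the log2 fold change was -1.54 and still past the threshold.

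Cacna1i, the third T-type gene (ENSMUSG00000022416.15, chromosome 15, 80287238 to 80398279, plus strand), is largely confined to neurons and gives slower T-type currents. It had 13.2, 11.2 and 14.2 CPM in E18 replicates 1, 3 and 4 and 20.1, 25.1 and 27.8 CPM in P5 replicates 6, 8 and 9, again without overlap. The means were 12.8 ± 1.54 and 24.3 ± 3.90 CPM (SD, n = 3 each). The log2 fold change was -0.92 (SE 0.151, edgeR-adjusted p = 0.00203), or 1.90-fold higher at P5 with a 95% interval of 1.49 to 2.41. Per kilobase of exon Cacna1i lay below Cacna1g and Cacna1h in every P5 sample. For other retinal neurons, marker sums were uneven between samples. Over 9 amacrine genes the sum was 97.8, 200.1 and 15.3 CPM in E18 replicates 1, 3 and 4 and 20.1 to 29.4 CPM at P5, and 4 of the 8 tested were higher at E18. The excess was in E18 replicates 1 and 3, and E18 replicate 4 lay below every P5 sample. The 9 bipolar genes summed to 54.2 to 62.8 CPM at E18 and 84.6 to 118 CPM at P5, most of it from Prkca, with 4 lower and 1 higher at E18, and without Prkca the ages overlapped, at 10.46 to 22.06 CPM and 19.8 to 27.7 CPM. The part of these cell types in the rise of Cacna1g and Cacna1i towards P5 was not tested. In RNA from pooled cells, fewer cells of a type and less RNA per cell cannot be told apart.

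The ratio of T-type reads within a library does not depend on the normalization. For each read counted on Cacna1h, 0.199, 0.164 and 0.199 reads were counted on Cacna1g in E18 replicates 1, 3 and 4, against 1.24, 0.815 and 1.68 in P5 replicates 6, 8 and 9. The mean ratios were 0.187 ± 0.0206 and 1.25 ± 0.434 (SD, n = 3 each). The ratio of Cacna1i to Cacna1h was 0.0945 to 0.112 at E18 and 0.326 to 0.465 at P5. The ratio of Cacna1g to Cacna1i was 1.731 to 1.796 at E18 and 2.502 to 3.619 at P5. In each ratio the ages did not overlap. For the ratios to Cacna1h this had to follow from the levels above, where Cacna1h and the other T-type genes separated the ages in opposite directions. With 3 samples a group the smallest p an exact permutation test can give is 0.1, so no p is given for these ratios or for the shares that follow.

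Levels can be compared between genes only per length, here as CPM per kilobase of exon (the merged exons of the GENCODE basic annotation). On this scale the summed T-type level was 18.5, 17.7 and 19.8 in E18 replicates 1, 3 and 4 and 17.1, 19.3 and 21.9 in P5 replicates 6, 8 and 9, so the ages overlapped in the total while its makeup differed. The means were 18.7 ± 1.05 and 19.4 ± 2.42 CPM per kilobase (SD, n = 3 each). Cacna1h held 77.7% to 80.8% of the T-type level at E18 and 33.1% to 48.5% at P5. Cacna1g held 12.80% to 15.01% at E18 and 38.3% to 54.0% at P5, and Cacna1i held 6.43% to 7.31% and 12.04% to 13.3%. Cacna1g was the highest T-type gene in P5 replicates 6 and 9, and Cacna1h in P5 replicate 8 and in all E18 samples. These shares are a description of the samples, and with the length of the matched RefSeq transcript in place of the merged exons the share of Cacna1h was 77.2% to 80.3% at E18 and 32.3% to 47.7% at P5.

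**Figure D2:**
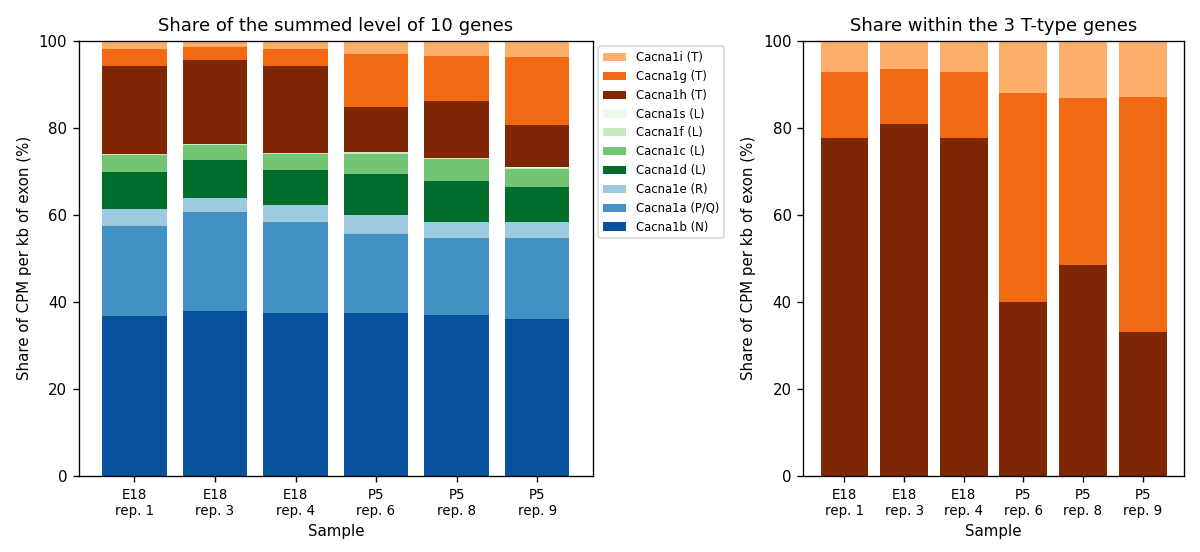
Share of the summed level (CPM per kilobase of exon, in percent) of each pore subunit gene in each of the 6 samples, over all 10 genes (left) and over the 3 T-type genes alone (right). The T-type genes together keep 23.7% to 29.1% of the family in every sample, while the part of Cacna1h within them is 77.7% to 80.8% at E18 and 33.1% to 48.5% at P5.

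Over the whole family, the N-type and P/Q-type genes took the largest part at both ages. The P/Q-, N- and R-type genes together held 61.2% to 63.9% of the summed level at E18 and 58.3% to 60.1% at P5. The L-type genes held 11.95% to 12.77% and 12.59% to 14.7%, and the T-type genes 23.7% to 26.0% and 25.6% to 29.1%. The summed level of all 10 genes was 74.4 ± 2.86 CPM per kilobase in the E18 and 71.2 ± 4.25 in the P5 samples (SD, n = 3 each), and the ages overlapped. At E18 the order of the levels was Cacna1b, Cacna1a, Cacna1h, Cacna1d, Cacna1e, Cacna1c, Cacna1g, Cacna1i, Cacna1f and Cacna1s. Cacna1a and Cacna1h overlapped in the E18 samples, as did Cacna1e and Cacna1c, and Cacna1c and Cacna1g. At P5 Cacna1g stood at place 3 in place of Cacna1h, which overlapped it, and Cacna1h came next. Cacna1d, Cacna1c, Cacna1e, Cacna1i, Cacna1f and Cacna1s followed, with Cacna1e and Cacna1i overlapping. Cacna1h and Cacna1d were nearly adjacent at P5, with the lowest value of the former at 6.823 and the highest of the latter at 6.819 CPM per kilobase.

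Cacna1b, the N-type pore of presynaptic terminals (ENSMUSG00000004113.18, chromosome 2, 24603887 to 24763152, minus strand), was the highest member in every sample. It had 256, 278 and 282.5 CPM in E18 replicates 1, 3 and 4 and 245, 259 and 265 CPM in P5 replicates 6, 8 and 9. The ages overlapped. The means were 272 ± 14.3 and 256 ± 9.94 CPM (SD, n = 3 each), and the log2 fold change was 0.09, short of the threshold (SE 0.0833, 95% interval -0.10 to 0.28, edgeR-adjusted p = 0.421). The interval allows at most a 1.21-fold higher level at E18 and a 1.07-fold higher level at P5. Per kilobase its level was 27.8 ± 1.46 at E18 and 26.2 ± 1.02 at P5.

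Cacna1a, the P/Q-type pore that drives fast release at most mature central synapses (ENSMUSG00000034656.17, chromosome 8, 84388440 to 84640246, plus strand), was modestly higher at E18. It had 117, 134 and 127 CPM in E18 replicates 1, 3 and 4 and 95.4, 101.2 and 111.4 CPM in P5 replicates 6, 8 and 9. The lowest E18 sample lay just above the highest P5 sample. The means were 126 ± 8.74 and 103 ± 8.10 CPM (SD, n = 3 each), and the log2 fold change was 0.30 (SE 0.0967, edgeR-adjusted p = 0.0360), or 1.23-fold with a 95% interval of 1.05 to 1.43. The call was lost without E18 replicate 3, without E18 replicate 4, without P5 replicate 6 or without P5 replicate 8, with adjusted p of 0.0249 to 0.140 over all alternatives run. Relative to Cacna1b in the same library, Cacna1a had 0.451 to 0.481 reads per read at E18 and 0.389 to 0.421 at P5. The antisense transcript Gm16183 shares 229 exon bases with Cacna1a and is not among the genes listed, and its part in these reads was not tested.

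Cacna1e, the R-type pore found in dendrites and terminals (ENSMUSG00000004110.16, chromosome 1, 154390731 to 154884501, minus strand), had 42.4, 38.4 and 45.2 CPM in E18 replicates 1, 3 and 4 and 45.7, 38.8 and 42.4 CPM in P5 replicates 6, 8 and 9. The values of the ages lay over each other. Its log2 fold change was -0.01, with a 95% interval of -0.25 to 0.23 (edgeR-adjusted p = 0.944).

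The neuronal L-type genes are Cacna1d and Cacna1c, of which Cacna1c passed the threshold. Cacna1d, whose channel opens at less depolarized potentials than that of Cacna1c (ENSMUSG00000015968.17, chromosome 14, 30039939 to 30491455, minus strand), had 55.3, 58.4 and 55.6 CPM in E18 replicates 1, 3 and 4 and 55.7, 61.3 and 53.9 CPM in P5 replicates 6, 8 and 9. These overlapped, and the log2 fold change was -0.01 with a 95% interval of -0.22 to 0.19 (edgeR-adjusted p = 0.916). Cacna1c, the main L-type pore of heart and brain (ENSMUSG00000051331.15, chromosome 6, 118587240 to 119196418, minus strand), had 41.0, 40.2 and 42.6 CPM in E18 replicates 1, 3 and 4 and 47.6, 53.6 and 48.3 CPM in P5 replicates 6, 8 and 9. All E18 samples were below all P5 samples. The means were 41.3 ± 1.24 and 49.8 ± 3.29 CPM (SD, n = 3 each), and the log2 fold change was -0.27 (SE 0.0917, edgeR-adjusted p = 0.0399), or 1.21-fold higher at P5 with a 95% interval of 1.05 to 1.40. Without a filter on low counts the adjusted p was 0.0648, and the call was also lost without any 1 of the E18 samples or without P5 replicate 9, with adjusted p of 0.0248 to 0.160 over all alternatives run. Whether Cacna1c and Cacna1d differ in their change was not tested across genes, and the ratio of Cacna1c to Cacna1d reads was 0.688 to 0.766 at E18 and 0.854 to 0.897 at P5, without overlap. Cacna1d shares 587 exon bases with Chdh on the other strand, and since it is not stated whether counting used the strand, reads there could be assigned to either or to neither. Chdh itself was listed at a mean of 1.40 CPM at E18 and 2.55 CPM at P5.

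The other L-type genes had the fewest reads of the family, and of them Cacna1s was near the floor of detection. Cacna1f, the L-type pore of photoreceptor and bipolar cell terminals (ENSMUSG00000031142.17, chromosome X, 7607083 to 7635196, plus strand), had 127, 121 and 105 reads in E18 replicates 1, 3 and 4 and 110, 94 and 131 reads in P5 replicates 6, 8 and 9. As CPM these were 1.53, 1.08 and 1.16 at E18 and 1.24, 0.955 and 1.39 at P5, and the ages overlapped. Its log2 fold change was 0.07 with a 95% interval of -0.51 to 0.65 (edgeR-adjusted p = 0.845), which allows up to a 1.57-fold higher level at E18 and up to a 1.43-fold higher level at P5. The 11 photoreceptor genes summed to 13.2, 8.04 and 4.44 CPM in E18 replicates 1, 3 and 4 and to 4.46 to 5.99 CPM at P5, with 3 higher and 1 lower at E18, and none was at 0 in all samples. Their part in the level of Cacna1f was not tested.

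Cacna1s, the L-type pore that acts as the voltage sensor of skeletal muscle (ENSMUSG00000026407.17, chromosome 1, 136052750 to 136119822, plus strand), had 4, 9 and 7 reads in E18 replicates 1, 3 and 4 and 44, 18 and 47 reads in P5 replicates 6, 8 and 9. Exact Poisson intervals of 95%, which cover counting error only, were 4.12 to 17.1 reads for E18 replicate 3 and 10.7 to 28.5 reads for P5 replicate 8, the nearest samples of the ages, and these overlap. The means were 0.0686 ± 0.0177 and 0.393 ± 0.182 CPM (SD, n = 3 each). The fitted log2 fold change was -2.47 (SE 0.504, 95% interval -3.62 to -1.33, edgeR-adjusted p = 0.00523), the widest interval of the family. The 8 muscle genes summed to 23.0 to 24.2 CPM at E18 and 25.4 to 31.5 CPM at P5, most of it from Ttn, and none was at 0 in all samples. An antisense transcript of the annotation, Gm37759, shares 1212 exon bases with Cacna1s and is not listed in the table, and its part in these few reads was not tested.

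**Figure D3:**
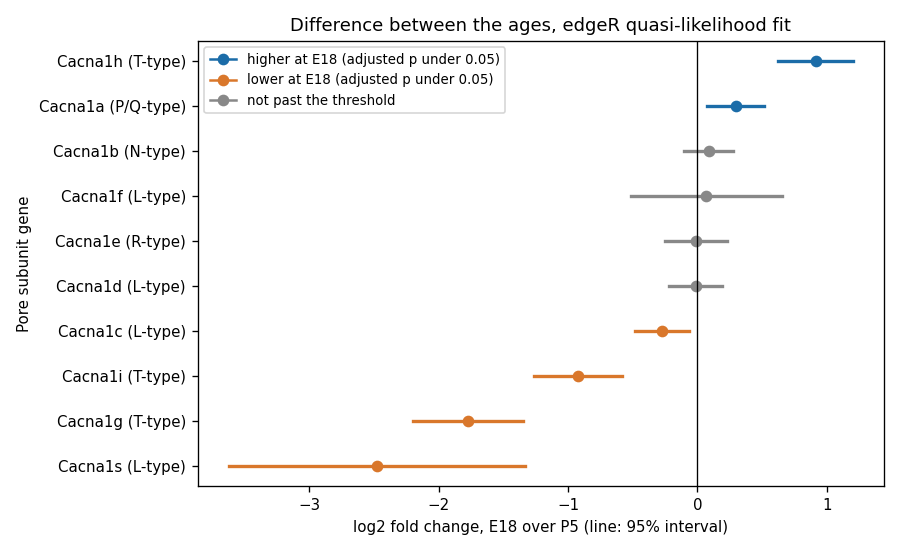
Fitted log2 fold change (E18 over P5) of each pore subunit gene with its 95% interval, from edgeR's quasi-likelihood fit, coloured by whether it passed an adjusted p of 0.05 and in which direction. The 3 T-type genes and Cacna1s lie away from 0, whereas the intervals of Cacna1a and Cacna1c end close to it and those of Cacna1b, Cacna1d, Cacna1e and Cacna1f include it.

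The spread between samples of one age differed over the family. At E18 the coefficient of variation was 2.995% for Cacna1c and Cacna1d and 8.11% for Cacna1e, with 11.99% for Cacna1i and 13.5% for Cacna1g, against a median of 7.94% over all genes tested. At P5 it ran from 3.88% for Cacna1b to 25.8% for Cacna1g among the 8 members with at least 1092 reads in every sample, against a median of 14.8% over all genes tested. Counting error alone gives at most 3.03% for those members, 10.3% for Cacna1f and 50.0% for Cacna1s.

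The auxiliary subunits, which bring high-voltage-activated pores to the membrane and tune their gating, had log2 fold changes from -2.52 to 0.60. Of the alpha2delta subunits, Cacna2d1, a binding site of gabapentin, had 91.8 ± 11.01 CPM at E18 against 179.8 ± 34.5 CPM at P5 (SD, 3 samples each; log2 fold change -0.97, edgeR-adjusted p = 0.00146). Cacna2d2 had 57.1 ± 1.67 and 95.3 ± 20.03 CPM (log2 fold change -0.74, edgeR-adjusted p = 0.00467). Cacna2d3 and Cacna2d4 did not pass (log2 fold changes -0.22 and -0.49), and Cacna2d3 varied from 4.87 to 24.4 CPM among the E18 samples. Among the beta subunits, which bind the pore inside the cell, Cacnb2 had 4.24, 4.50 and 4.67 CPM in E18 replicates 1, 3 and 4 and 23.1, 19.6 and 34.3 CPM in P5 replicates 6, 8 and 9. Its log2 fold change was -2.52 (edgeR-adjusted p = 0.000157), the most negative among the auxiliary subunits. Cacnb4 was also lower at E18 (log2 fold change -0.70, edgeR-adjusted p = 0.000681), Cacnb3 was higher (0.53, edgeR-adjusted p = 0.00168), and Cacnb1 did not pass (0.02, 95% interval -0.24 to 0.28). The gamma subunits include partners of AMPA receptors as well as of calcium channels. Of the 7 tested, Cacng4 was higher at E18 (log2 fold change 0.60) and Cacng5 lower (-0.54), and 5 did not pass. By list, 50.0% of the alpha2delta, 75.0% of the beta and 28.6% of the gamma genes tested differed. Among all genes tested 43.4% differed, 20.8% higher and 22.5% lower at E18, and the lists are too small to be set apart from that background.

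The other calcium genes of the lists, all 74 of which were in the table, gave 6 higher and 28 lower at E18 among the 70 tested, with a median log2 fold change of -0.30 against 0.00473 over all genes tested. In all 48.6% of them differed, near the 43.4% of the whole table, where 20.8% were higher and 22.5% lower. Of 18 partners at the release site 38.9% differed, below that background: 1 was higher, Unc13a (log2 fold change 0.33), and 6 were lower, led by Rims4 (-1.45), Snap25 (-1.21) and Apba1 (-0.95). Of 13 tested regulators of the channels, Rem2, a small GTPase that inhibits high-voltage-activated channels, was higher at E18, with 57.7 ± 1.85 CPM against 28.2 ± 5.65 CPM in the P5 samples (SD, n = 3 each; log2 fold change 1.03, edgeR-adjusted p = 0.000916). The 5 that were lower were led by Stac (-1.02) and Stac2 (-0.88), adaptors of L-type channels.

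Against 20.8% of all genes tested higher and 22.5% lower at E18, the smaller lists gave the following counts. Of 11 genes of calcium release from stores and entry after it, 7 were lower at E18, led by the inositol trisphosphate receptor Itpr1 (10.6 ± 1.21 CPM in the E18 and 62.9 ± 27.1 CPM in the P5 samples, SD, n = 3 each; log2 fold change -2.56), the entry channel Orai2 (-1.27) and the ryanodine receptor Ryr2 (-1.21), and 1 was higher, Ryr1 (0.56). Of 7 tested calcium-activated potassium channel genes, Kcnn2 (-0.69) and Kcnma1 (-0.44) were lower at E18. The last list holds relatives of the pore with a similar plan and their partners, 6 genes tested. The sodium leak channel Nalcn (-1.47) and its partners Unc80 (-1.14) and Fam155a (-0.36) were lower at E18, and the two-pore channel gene Tpcn2 was higher (1.37). Unc79, another partner of Nalcn, named after its values were seen, went the other way (0.27). Its E18 samples all lay above its P5 samples, but it did not pass (edgeR-adjusted p = 0.0549). Apart from that of Unc79, these log2 fold changes passed the same edgeR test adjusted over all genes, and the lists are described by their counts alone.

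**Figure D4:**
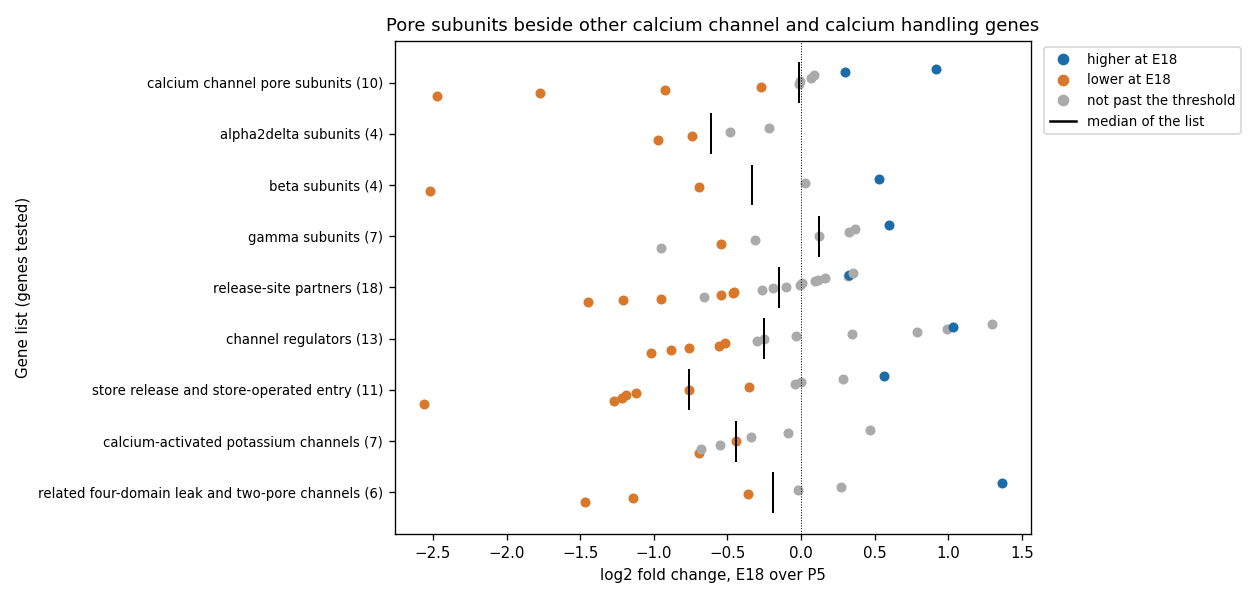
Fitted log2 fold change (E18 over P5) of each tested gene, one row per list with the number of genes tested in brackets, coloured by call, with a line at the median of each list. The pore subunits have a median of -0.01 with members on both sides, whereas the 11 genes of store release and store-operated entry have a median of -0.76.

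Likeness in pattern over the 6 samples was measured by Pearson's r of log2 CPM after a small constant was added. It was taken over the genes expressed at 1 CPM or more on average. The genes most like Cacna1h were 1700048O20Rik (0.9993), Prcc (0.9992) and Celsr3 (0.9987). For Cacna1s they were Asns (0.9996), Pcsk1 (0.9992) and Ndufv2 (0.9982), and for Cacna1g, added after its values were seen, Fnbp1 (0.9989), Adarb1 (0.9987) and Ngb (0.9984). The added constant exceeded every E18 value of Cacna1s, which had 4 to 9 reads in the E18 samples, so its r is weak ground for likeness. The 6 points share the split by age, and 982, 1023 and 1547 of the genes compared had an r over 0.95 with Cacna1h, Cacna1s and Cacna1g.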

How the data were processed

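The authors depleted ribosomal RNA (although the labels name polyA RNA), sequenced paired ends, used STAR for alignment to mm10 and HT-seq for the counting of RefSeq genes, with a strand setting that is not stated. The raw counts they deposited, one value for each gene in each sample, were used here. The deposited normalized counts, a signal scaled per library by the authors, the log2 fold changes, the p-values and the rank score deposited by the authors were not used.

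Normalization was by TMM and the test was that of edgeR 4.0.16 (glmQLFit, R 4.3.3; DESeq2 1.42.0 as an alternative) on the 16449 genes that passed filterByExpr, with age as the only term, Benjamini-Hochberg adjustment and a threshold of 0.05. Samples of one age differed by a chi-square of 32.1 to 149 per degree of freedom, well above sampling noise. Exon lengths and coordinates come from GENCODE M21 (mm10). Tspoap1 and Cbarp were matched to the listed symbols Bzrap1 and Dos. The other marker sums are given for E18 and then P5. They were 444 to 528 and 483 to 520 CPM for the 10 Müller glial and astrocytic genes. For 10 microglial genes they were 2.40 to 3.29 and 1.79 to 2.46 CPM. For 9 oligodendrocyte genes they were 90.7 to 91.5 and 54.0 to 73.6 CPM, without overlap. Of the 6 oligodendrocyte genes tested, 1 was higher and 2 were lower at E18.

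The values of 2 genes of the lists are not reported here, and the amacrine sum covers 9 genes, chosen with the values known. The members and lists were chosen with earlier results of these data known. All members are named, with every alpha2delta and beta subunit. In the other lists, up to 3 genes higher and 3 genes lower at E18, past the threshold without overlap, are named. The alternatives were other normalizations, tests and filters, and the omission of each sample.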

Additional observations from a re-analysis of the deposited data

How the results depend on the processing

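Over the 14 alternatives run, Cacna1b, Cacna1g, Cacna1h and Cacna1i kept their direction and their side of the threshold in each, with log2 fold changes of 0.04 to 0.13, -1.92 to -1.54, 0.81 to 1.05 and -1.06 to -0.82, and so did Cacna1s in the 13 that could test it (-2.84 to -2.26). It was left out by a filter of at least 1 CPM in 3 samples. Leaving out each sample in turn reversed the sign of uncalled members, with log2 fold changes of -0.0539 to 0.0238 for Cacna1d, -0.0873 to 0.0546 for Cacna1e and -0.0907 to 0.192 for Cacna1f. It gave 4 to 5 members called in place of 6, 1 to 2 higher and 3 to 4 lower, 26 to 43 of the other calcium genes in place of 34, with 3 to 10 higher and 23 to 33 lower, and 4575 to 8796 genes over the table in place of 7135, with 2137 to 4135 higher and 2438 to 4661 lower. The count over the table moved by over 1.5 times without E18 replicate 3 (4575). The count of the other calcium genes higher at E18 did so without E18 replicate 1 (3) and without P5 replicate 8 (10). The count of members higher at E18 fell to 1 wherever Cacna1a lost its call. The cause was not tested. With other normalizations, tests and filters 5 to 6 members and 33 to 37 of the other calcium genes were called. Depth limits Cacna1s, with 4 to 9 reads in the E18 samples. No paired analysis was possible because the ages share no replicate number.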
